A study of Mus musculus with 6 samples.

Results

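The mouse genome holds 202 protein-coding genes in GENCODE annotation (mm10) that span at least 500 kb and do not belong to the excluded families Nrxn, Nlgn, Cntn, Gri, Kcn, Robo, Sema, Erbb, Nrg, Dcc, Unc5, Sox and Nfi or to Fgfr2. They were taken from 21938 protein-coding genes, of which 230 reached 500 kb before these names were left out. The length rule used no measured value. The 202 genes ran from 501.8 kb (Edil3, which encodes a matrix protein) to 4435 kb (Gm20388, a predicted gene model), with a median of 722.6 kb, and together covered 171.2 Mb. Edil3 and Dock1 (503.0 kb) stood just above the limit, and Pde1c (499.3 kb) and Dnm3 (495.6 kb) just below it.

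A gene of this length is almost entirely intron, and RNA polymerase needs many hours to cross it. Many such genes encode cell adhesion, synaptic and signalling proteins of the nervous system, use several promoters far apart, and include the common fragile sites, where chromosomes tend to break when replication is slowed. CAGE sequences the first bases of capped RNAs, so that its tags pile up at promoters. Tags that start elsewhere in the body of a gene lie where the annotation of that gene holds no promoter. Whether each of them marks the 5′ end of a capped RNA was not tested here.

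CAGE was measured on nuclear RNA of 2 mouse cell lines with 3 libraries each. The mESC libraries came from R08, an embryonic stem cell line grown without feeder cells in serum and leukemia inhibitory factor, and the mOPC libraries from Oli-neu, a line derived from oligodendrocyte progenitors and expanded with thyroid hormones, bFGF and PDGF-BB. Both are untreated and each is a single line, so that differences between them are differences between those lines. For every gene, tags on its own strand were counted within 500 bp of any of its annotated 5′ ends (promoter tags) and elsewhere between its ends (internal tags), and were given as CPM, the counts scaled to 1000000 tags in the library. The question was how internal starts stood to promoter starts, gene by gene and cell line by cell line.

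The libraries held between 16657021 and 40928704 tags. Markers of stem cells (Pou5f1, Nanog, Sox2, Esrrb, Zfp42 and Dppa5a) summed to between 3222 and 3550 promoter CPM in mESC and between 22.9 and 24.9 in mOPC libraries, and markers of oligodendrocyte progenitors (Pdgfra, Cspg4, Olig1, Olig2, Sox10 and Nkx2-2) to between 7.23 and 8.16 in mESC and between 1399 and 1494 in mOPC libraries. Nkx2-2 was at 0 in all mOPC libraries. Pdgfra, which made up most of the mESC sum, had means of 5.51 CPM in mESC and 8.33 in mOPC libraries. Markers of differentiated oligodendrocytes summed to between 312 and 344 CPM in mOPC and between 22.8 and 25.3 in mESC libraries. Of these only Mobp was higher in mESC libraries, with means of 11.0 CPM in mESC and 0.173 in mOPC libraries. Neuronal markers summed to between 279.6 and 306 in mESC libraries, nearly all of it from Stmn2, and between 81.3 and 101.9 in mOPC libraries, where Rbfox3, Syp, Snap25 and Stmn2 were at 0 and Syt1, itself one of the 202 genes, supplied most of the sum. Astrocyte markers summed to between 118.6 and 132 CPM in mESC and between 82.8 and 94.8 in mOPC libraries, and markers of microglia and fibroblasts to at most 12.4. The astrocyte markers were split, with means of 77.7 CPM in mESC and 0.0152 in mOPC libraries for Gja1 and 39.7 and 89.5 for Slc1a3. The labels do not say that libraries of a line were separate cultures, and p-values then measure only the spread between these libraries. In bulk RNA, fewer cells of a type and less RNA per cell cannot be told apart. The mESC and mOPC libraries also carry different identifiers in their names, and the labels do not say what these stand for. A batch that differs between the lines and the cell line itself cannot be told apart.

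Main start sites of 6 of these genes are printed with RefSeq promoter windows (build GRCm38.p6, plus strand, 300 bases) to show what a promoter of a very long gene looked like at single-base resolution. They are the strongest promoter of mESC libraries (Exoc4), the strongest of mOPC libraries (Anks1b), a signalling gene whose start rose in mOPC libraries (Plcb1), a short-isoform promoter deep inside its gene (Dmd), and the promoters of a pair of genes whose internal tags went against the promoter (Nav2 and Enox1). Capitals mark the deposited position with the most tags and the base that follows it.
Exoc4 (mESC main start), chr6:33248878-33249177: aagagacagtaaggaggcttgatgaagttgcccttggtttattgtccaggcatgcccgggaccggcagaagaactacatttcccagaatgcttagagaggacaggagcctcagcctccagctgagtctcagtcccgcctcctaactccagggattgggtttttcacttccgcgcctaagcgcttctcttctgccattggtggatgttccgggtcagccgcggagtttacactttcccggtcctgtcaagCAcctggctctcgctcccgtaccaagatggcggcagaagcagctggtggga
Anks1b (mOPC main start), chr10:90576441-90576740: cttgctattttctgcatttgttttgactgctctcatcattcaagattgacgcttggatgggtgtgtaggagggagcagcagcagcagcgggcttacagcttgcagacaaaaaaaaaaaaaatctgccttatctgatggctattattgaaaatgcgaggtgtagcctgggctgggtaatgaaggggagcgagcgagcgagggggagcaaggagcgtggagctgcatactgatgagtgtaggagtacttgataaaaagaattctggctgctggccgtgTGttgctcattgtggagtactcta
Plcb1 (mOPC main start), chr2:134785914-134786213: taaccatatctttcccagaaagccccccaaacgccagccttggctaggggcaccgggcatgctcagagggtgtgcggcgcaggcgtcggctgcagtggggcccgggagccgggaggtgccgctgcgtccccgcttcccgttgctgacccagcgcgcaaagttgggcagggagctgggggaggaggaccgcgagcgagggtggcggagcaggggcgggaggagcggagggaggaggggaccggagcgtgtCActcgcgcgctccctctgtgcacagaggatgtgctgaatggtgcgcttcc
Dmd (mESC main start), chrX:85048045-85048344: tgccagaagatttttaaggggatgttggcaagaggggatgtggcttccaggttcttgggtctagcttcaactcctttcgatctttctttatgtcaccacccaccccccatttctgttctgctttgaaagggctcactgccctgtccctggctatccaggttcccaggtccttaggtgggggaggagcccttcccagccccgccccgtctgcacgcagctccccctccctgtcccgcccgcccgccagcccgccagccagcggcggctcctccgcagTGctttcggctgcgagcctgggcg
Nav2 (mOPC main start), chr7:49245939-49246238: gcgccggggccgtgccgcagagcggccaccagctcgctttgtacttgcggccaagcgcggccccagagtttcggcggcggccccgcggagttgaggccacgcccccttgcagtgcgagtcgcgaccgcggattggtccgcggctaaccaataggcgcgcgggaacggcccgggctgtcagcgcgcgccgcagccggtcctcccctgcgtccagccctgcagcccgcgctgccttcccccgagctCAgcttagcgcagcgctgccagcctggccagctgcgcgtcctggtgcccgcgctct
Enox1 (mOPC main start), chr14:77156513-77156812: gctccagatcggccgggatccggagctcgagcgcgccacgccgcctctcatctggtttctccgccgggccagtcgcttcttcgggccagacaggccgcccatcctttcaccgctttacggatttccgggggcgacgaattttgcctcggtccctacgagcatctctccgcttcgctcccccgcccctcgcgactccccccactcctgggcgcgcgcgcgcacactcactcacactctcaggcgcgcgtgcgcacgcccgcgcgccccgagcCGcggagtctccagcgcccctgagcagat

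The capitals read CA in Exoc4, Plcb1 and Nav2, TG in Anks1b and Dmd, and CG in Enox1, each a pyrimidine followed by a purine, the step at which RNA polymerase II commonly starts. RefSeq windows held 95 main starts of 66 of the genes, 39 in mESC and 56 in mOPC libraries, with a gene counted once for each line. The deposited base and the next one formed a pyrimidine-purine step in 85 of the 95 (CA in 43, CG in 21, TG in 15 and TA in 6), in 53 of 57 on the plus strand and 32 of 38 on the minus strand. The deposited base and the one before it formed such a step in 0 of 95, so that the deposited positions lay on the pyrimidine and not on the purine, on both strands. Counted over all tags in the windows of the 202 genes, the step stood at 69.8% ± 0.624 (SD, n = 3) of mESC tags and 66.3% ± 0.288 of mOPC tags, beside 64.6% and 66.0% in the windows of all protein-coding genes. The members' difference separated the libraries (exact permutation test, two-sided p = 0.1, the smallest that 3 against 3 allow). The motif TATAAA, searched on both strands, stood in 1 of the 67 different windows with a main start. It was in 10.5% of 247 windows of the 202 genes and in 12.1% of 20150 windows of protein-coding genes. Median CpG counts were 23 in these windows with a main start, 12 in all windows of the 202 genes and 14 in those of all protein-coding genes.

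Tags at the main start were read in every library. At the Exoc4 start the mESC libraries had 245, 245 and 276 CPM and the mOPC libraries 74.6, 77.8 and 76.8, without overlap. The Anks1b start, 703.2 kb into its gene, had 0 tags in all mESC libraries and 95.3, 89.7 and 88.5 CPM in the mOPC libraries. Plcb1 (phospholipase C beta, which cleaves membrane phosphoinositides) used the same base in both lines, with 2.14, 1.62 and 1.57 CPM in mESC and 73.5, 87.4 and 84.1 in mOPC libraries.

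Promoter activity of these genes was sparse in mESC and broad in mOPC libraries. At least 1 promoter CPM was seen for 102 of the 202 genes in mESC and 132 in mOPC libraries, at least 10 CPM for 47 and 105, and at least 100 CPM for 8 and 33. The median promoter level was 1.01 CPM in mESC and 11.3 CPM in mOPC libraries. No promoter tag was found for 18 genes in mESC and 32 in mOPC libraries, which allows up to 0.0411 and 0.0327 CPM over the pooled tags of a line. All 202 genes had internal tags in both lines.

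The 4 strongest promoters of mESC libraries were those of Exoc4, Diaph2, Gm20388 and Cdkal1. Exoc4, a subunit of the exocyst that tethers vesicles to the plasma membrane, had 562, 578 and 634 promoter CPM in mESC and 170.0, 187 and 181 in mOPC libraries. Diaph2, an actin-nucleating formin, had 212, 207 and 220.4 against 85.02, 88.7 and 78.4. Gm20388, the model that contains other coding genes, had 214, 212 and 209.9 against 98.3, 89.6 and 99.3. Cdkal1, an enzyme that modifies transfer RNA, had 199.6, 194 and 214 against 166, 178 and 176. None of these 4 overlapped between the lines, and in each the mESC libraries were higher. They were picked as the highest in mESC libraries, which favours this order. Of all genes tested at promoters, 91.1% were called in either direction (edgeR, described below). The strongest promoters of mOPC libraries were those of Anks1b, a postsynaptic scaffold protein, with 711, 662 and 653 CPM against 7.57, 7.80 and 6.73 in mESC libraries, of Vps13b, a lipid transfer protein of the Golgi, with 464, 445 and 419 against 103, 121 and 124, and of Ank2 (ankyrin-B, which anchors membrane proteins to the spectrin skeleton), with 419, 454 and 446 against 20.3, 22.6 and 26.3. The mOPC libraries were higher for all 3, and the groups did not overlap, with the same limit from the choice of genes.

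Promoter tags were compared between the lines with edgeR's quasi-likelihood test over 16688 coding and long non-coding genes (Benjamini-Hochberg adjusted p under 0.05). Of the 202 genes 156 passed the filter on low counts, which a gene high in one line alone can pass, and 106 of them were higher and 45 lower in mOPC libraries. Over all genes tested, 42.4% were higher and 48.7% lower, so that nearly every gene was called in one direction or the other (91.1%). Their median log2 fold change was 2.30, against -0.16 over all genes. The shares higher in mOPC libraries were 32.4% for coding genes under 10 kb, 37.7% for 10 to 50 kb, 44.8% for 50 to 100 kb, 49.7% for 100 to 200 kb and 63.3% for 200 to 500 kb, and 67.9% for the very long genes. This order is a description of classes that share the same libraries.

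The 6 largest rises were near on-off differences. Lhfpl3, a tetraspan membrane protein, had a single promoter tag in mESC libraries (0.0264, 0 and 0 CPM) and 445, 441 and 420.0 CPM in mOPC libraries, a ratio of 31576 (95% exact interval 5667 to 1247230.0), with a log2 fold change of 14.44 ± 0.22, edgeR adjusted p = 9.26e-84. Il1rapl1, an interleukin-1 receptor relative that organizes synapses, had 0 tags in mESC libraries and 107, 94.9 and 90.8 CPM in mOPC libraries, at least 2337-fold higher when 3 counts over the pooled mESC tags are taken as the floor. Kirrel3, an immunoglobulin adhesion protein, had 0 tags in mESC libraries and 55.3, 50.1 and 55.9 CPM in mOPC libraries, at least 1312-fold higher. Each of these promoters was silent or nearly so in mESC and strong in mOPC libraries. Mdga2, which binds neuroligins, had 0.0264, 0 and 0 CPM in mESC and 103, 94.04 and 79.8 in mOPC libraries. Csmd3, a large membrane protein of CUB and sushi domains, had 0, 0 and 0.0543 and 76.6, 84.7 and 71.9. Pde4b, which degrades cyclic AMP, had 0.158, 0.120 and 0.109 and 419.9, 435 and 457, with a log2 fold change of 11.48 ± 0.17, edgeR adjusted p = 3.02e-83.

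The 6 largest falls went to 0 or close to it in mOPC libraries. Slit3, a secreted axon guidance ligand, had 13.5, 11.6 and 16.01 promoter CPM in mESC libraries and 0 tags in the mOPC libraries, at least 419-fold lower. Adgrv1, an adhesion receptor of sensory hair cells, had 28.4, 27.2 and 30.3 in mESC and 0, 0 and 0.0489 in mOPC libraries, with a log2 fold change of -10.19 ± 0.27, edgeR adjusted p = 4.01e-61. Dpp6, an auxiliary subunit of potassium channels, had 4.20, 4.14 and 3.64 in mESC libraries and 0 tags in mOPC libraries. Each of them was clearly on in mESC libraries. Spag16, a protein of the flagellar axoneme, had 3.88, 3.30 and 4.78 against 0 tags, Gm37240, a predicted gene model, 2.77, 3.42 and 4.02 against 0, and Tenm1, a teneurin, 2.27, 1.98 and 2.17 against 0.

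**Figure D1:**
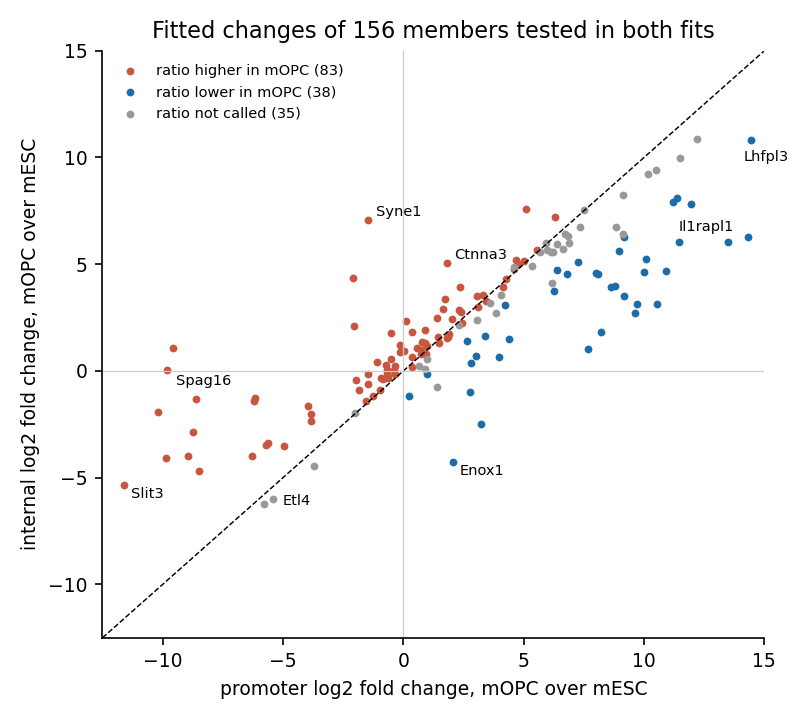
Log2 fold change (mOPC over mESC) of internal tags (vertical) against that of promoter tags (horizontal), edgeR, 1 point per very long gene that passed the filter in both fits, coloured by the call of the internal-to-promoter ratio. Of 140 genes called in both, 128 lie in the quadrants of equal sign and 12 in the others, and fitted values of genes with 0 tags in a line depend on the prior count.

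Cell adhesion and synaptic surface genes were the largest group, with 51 genes. Of the 38 that passed the filter, 28 were higher and 10 lower in mOPC libraries at the promoter, with a median log2 fold change of 5.92. The counts of this and the following lists, which were set by hand, stand beside 42.4% higher and 48.7% lower over all genes tested and 67.9% and 28.8% over the very long genes, and no list was tested against the others. Rises beyond those named above included Lsamp, a neuronal adhesion protein (0.0469 to 118 CPM), Negr1, another of its family (0.109 to 159.7), Dscam, a homophilic adhesion receptor (1.49 to 262), and Cadm2, a synaptic adhesion molecule (2.52 to 92.9). The 10 that fell included, besides Adgrv1 and Tenm1, the teneurins Tenm3 (log2 fold change -3.96) and Tenm4 (-0.65) and the receptor phosphatases Ptprn2, Ptprk and Ptprg (-2.08, -0.67 and -0.66). The 13 that did not pass the filter included the cadherins Cdh12 and Cdh18.

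Of the 20 genes listed under transcription, chromatin and RNA regulation 19 passed the filter, and 16 of these were higher and 2 lower in mOPC libraries at the promoter. Its members include the transcription factors Npas3 (log2 fold change 11.44), Foxp2 (6.30), Zbtb20 (3.43) and Foxp1 (1.39), and the splicing regulator Rbfox1 (8.81). Zbtb20 had 33.5, 34.7 and 39.7 promoter CPM in mESC and 422, 437 and 398 in mOPC libraries, which did not overlap. The list also holds genes that do not act on transcription, namely the membrane protein Lhfpl3, the microtubule-binding navigators Nav2 and Nav3, and Macrod2, and these rose too. Zfp804b (-5.61) and the recombination gene Rad51b (-1.54) were the 2 that fell.

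Cytoskeletal genes and membrane scaffolds numbered 26, of which 23 passed the filter, 16 higher and 6 lower in mOPC libraries. The 2 with most tags, Anks1b and Ank2, both rose, as did the postsynaptic scaffolds Dlgap1 (7.67), Dlg2 (2.80) and Magi2 (3.32). The list also holds the glutamate receptor Grm7 (9.16) and the sorting receptors Sorcs1 and Sorcs3 (8.83 and 9.98). Dlgap2 and Sgcd, a dystrophin-associated sarcoglycan, fell (-6.20 and -6.18), with Spag16, Exoc4, the polarity gene Pard3 (-0.91) and Lpp (-0.86). Dmd was not called.

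Signalling genes numbered 22, of which 11 rose and 8 fell among the 19 that passed the filter. Plcb1 rose from 6.84, 7.68 and 7.33 promoter CPM in mESC to 342, 383 and 376 in mOPC libraries. Inpp4b, a phosphoinositide phosphatase, rose by 9.18 and Prkg1, the cyclic GMP-dependent kinase, by 6.24 on the log2 scale. The phosphodiesterase Pde4d went the other way from its relative Pde4b, with a log2 fold change of -1.98 ± 0.09, edgeR adjusted p = 8.83e-39. The Rac activators Dock2 (-4.96) and Elmo1 (-0.97) were lower and Dock1 (0.38) was higher in mOPC libraries. Syne1, a nuclear envelope protein held in this list, fell by 1.45 on the log2 scale.

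Smaller groups were mixed. Of 12 ion channels, pumps and transporters 9 passed the filter, 5 higher and 4 lower, among them the sodium-proton exchanger Slc9a9 (0.198 to 109.6 CPM), the sodium pump partner Nkain2 (4.86 to 145) and the acid-sensing channel Asic2 (1.56 to 0). Of 16 matrix, glypican and sulfation genes 10 passed the filter, 6 higher and 3 lower, among them the glypican Gpc6 (11.01 to 99.9), the sialyltransferase St6galnac3 (33.8 to 42.5) and, though not matrix genes, Dpp6 and its relative Dpp10 (9.11 on the log2 scale). The call of St6galnac3 was lost without mESC replicate 2 (edgeR adjusted p = 0.1803) and with DESeq2 (adjusted p = 0.0912). Of 11 genes of protein and metabolite turnover 6 were higher and 3 lower among 10, and of 45 genes in no list 19 were higher and 9 lower among 29. Common fragile site genes, 27 in number and partly in other lists, had 17 higher and 7 lower of 26.

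Among the fragile site genes, Fhit, Wwox, Macrod2 and Dmd differed in kind. Promoter tags of Fhit, a dinucleotide hydrolase, were 6.18, 6.42 and 7.49 and 7.25, 8.32 and 7.97, while its internal tags were 7.50, 5.82 and 8.19 and 61.8, 59.9 and 62.7. The Fhit promoter libraries overlapped and the internal ones did not, with log2 fold changes of 0.13 ± 0.14, edgeR adjusted p = 0.352, and of 2.32 ± 0.09, edgeR adjusted p = 3.95e-42. Wwox, an oxidoreductase, had 54.1, 53.1 and 61.6 promoter CPM in mESC and 47.02, 47.5 and 48.2 in mOPC libraries (log2 fold change -0.35 ± 0.09, edgeR adjusted p = 1.30e-04), and internal tags that were not called (-0.13 ± 0.08, edgeR adjusted p = 0.139), with a log2 fold change that turned to 0.63 where library totals set the scale. Macrod2, an ADP-ribose hydrolase, had mean promoter levels of 15.5 ± 1.16 and 32.00 ± 1.01 CPM (SD, n = 3) and internal levels of 5.27 ± 0.247 and 33.8 ± 0.479. Internal tags of Dmd, which encodes dystrophin, were 13.7, 10.99 and 14.98 CPM in mESC and 42.01, 44.3 and 43.6 in mOPC libraries, without overlap, beside promoter tags of 55.1, 60.3 and 65.01 and 69.9, 68.97 and 62.9 that were not called.

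Internal tags were then compared in the same way over 14900 genes. Of 191 very long genes that passed the filter, 120 were higher and 53 lower in mOPC libraries, beside 40.2% and 41.8% of all genes tested, and 82% of them were called in either direction. Their median log2 fold change was 1.36, against -0.04 over all genes. Where libraries were scaled by their total tags in place of the trimmed mean, the median of all genes moved to 0.83 and that of the very long genes to 2.30, and 137 were higher and 34 lower of 186, beside 58.5% and 27.3% of all genes (85.8% in either direction).

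The 4 largest internal rises were those of Mdga2, Lhfpl3, Pde4b and Lrrc4c. Internal tags of Lhfpl3 were 0.238, 0.420 and 0.326 CPM in mESC and 943, 954 and 903 in mOPC libraries, where this gene also had the densest internal tags of all 202 (1768 CPM per Mb). Internal tags of Mdga2 were 0.0528, 0 and 0.0543 and 143, 140.0 and 132, and those of Pde4b 0.211, 0.0600 and 0.109 and 262, 262 and 269. Lrrc4c, a netrin-G ligand of synapses, had 0.132, 0.180 and 0.109 and 157, 157 and 166, and exceeded its promoter tags in mOPC libraries (29.9, 29.99 and 25.97 CPM). These 4 were near 0 in mESC libraries both at promoters and inside.

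Zmat4, Etl4, Slit3 and Sntg1 had the 4 largest internal falls. Internal tags of Etl4 were 123, 119.9 and 123 CPM in mESC and 4.06, 2.95 and 3.05 in mOPC libraries, beside promoter tags of 121, 146 and 144 and 3.88, 3.92 and 2.69, so that both fell together. Slit3 had internal tags of 15.9, 16.7 and 17.5 and 0.821, 0.763 and 0.562. The zinc-finger gene Zmat4 had 19.3, 19.5 and 19.1 internal CPM in mESC libraries, far above its promoter (0.607, 1.08 and 0.868), and 0.502, 0.520 and 0.318 in mOPC libraries. Sntg1, a syntrophin of the dystrophin complex, had 6.99, 7.08 and 6.35 and 0.547, 0.416 and 0.147 internal CPM with 15 promoter tags in mESC and 0 in mOPC libraries, and its promoter did not pass the filter.

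The counts by group for internal tags stand beside 40.2% higher and 41.8% lower over all genes tested and 62.8% and 27.7% over the very long genes. Internal tags of adhesion genes were higher for 31 and lower for 12 of 48, those of transcription and RNA regulators for 15 and 3 of 20, those of cytoskeletal genes for 18 and 5 of 25, those of signalling genes for 14 and 6 of 21 and those of fragile site genes for 18 and 6 of 27. Matrix genes were split evenly (7 and 7 of 16), turnover genes had 8 higher and 1 lower of 10, and genes in no list 23 and 12 of 40. Ion channels, pumps and transporters had 5 higher and 7 lower of 12. In this group the median was 3.25 at the promoter, where 9 were tested, and -1.14 inside.

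Set side by side, promoter and internal tags moved the same way in most of these genes. Both comparisons use the same libraries. Of the 106 genes whose promoters were higher in mOPC libraries, 98 were also higher inside, 4 were lower and 4 were not called. Of the 45 whose promoters were lower, 30 were lower inside, 8 were higher and 7 were not called, and the 5 promoters that were not called (Galnt13, Camta1, Thsd4, Fhit and Dmd) all had higher internal tags. Among genes called in both, 128 of 140 (91.4%) went the same way, beside 89.1% of genes of 200 to 500 kb and 86.8% of all genes. The 12 that went opposite ways became 23, beside 120 the same way, where library totals set the scale, and 19, beside 136, without the filter on low counts. The internal fold was the smaller one in 95 of the 128, and in 4962 of 8393 over all genes.

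Several of the 12 exceptions held a strong start inside the gene. Enox1, an oxidase of the cell surface, rose at its promoter (10.4, 10.6 and 13.6 CPM in mESC and 44.7, 56.7 and 52.3 in mOPC libraries) and fell inside (201, 211 and 237 and 16.6, 19.7 and 20.8). An intronic start cluster at chr14:77520133-77520243 had 142, 158 and 170.4 CPM in mESC libraries and a single tag in mOPC libraries, and held 72.0% of the gene's internal mESC tags. Nav2 rose from 12.96, 14.7 and 14.8 to 95.8, 108 and 108 CPM at its promoters, while its internal tags were 42.3, 46.7 and 43.7 in mESC and 37.9, 36.6 and 38.1 in mOPC libraries. St6galnac3 and Trpm3, a cation channel, also rose at promoters (log2 fold changes of 0.22 and 3.25) and fell inside (-1.18 and -2.50). In Trpm3, a cluster at an annotated 5′ end of another gene (AC124513.1) held 96.6% of internal mESC and 16.4% of internal mOPC tags. Without tags of other genes, Trpm3 was no longer called opposite ways. For St6galnac3, 1 intronic base held 55.0% of internal mESC and 21.3% of internal mOPC tags.

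In 8 genes the promoter was lower and the body higher in mOPC libraries. Syne1 had 8.23, 9.07 and 9.88 promoter CPM in mESC and 3.69, 3.74 and 3.30 in mOPC libraries, and internal tags of 2.38, 1.86 and 2.12 and 549.9, 508 and 423, a log2 fold change of 7.07 ± 0.13, edgeR adjusted p = 7.82e-72. A cluster in one of its exons (chr10:5289380-5289577), 79.1 kb from the nearest annotated 5′ end of the gene, had 429.8, 376 and 299 CPM in mOPC libraries and 3 tags in all in mESC libraries, and held 73.9% of the internal mOPC tags. Cpq, a secreted carboxypeptidase, had promoter tags of 1.74, 2.94 and 2.28 and 0.365, 0.589 and 0.684, while an intronic cluster of 11 bp at chr15:33221382-33221392 had 25.4, 27.7 and 28.7 and 199.7, 199 and 195 CPM and over 96% of its internal tags in both lines. Ptprn2, a phosphatase-like protein of secretory vesicles, had 4.99, 4.14 and 6.40 and 1.46, 1.28 and 1.246 promoter CPM and 2.43, 2.10 and 2.88 and 81.2, 83.7 and 88.9 inside. Its largest cluster, 668.2 kb from its own 5′ ends, held 48.5% of internal mOPC tags. The others were Gm37240, Adamtsl1, Cdkal1, Atp8a2 and Kalrn. With all internal start clusters left out, Trpm3 was no longer among the exceptions and Pde4d joined them, and Enox1, Nav2, St6galnac3 and the other 8 stayed opposite. For St6galnac3 this rests on 2 separate fits. Its ratio of internal to promoter tags, tested as described below, then changed by 0.23 on the log2 scale (edgeR adjusted p = 0.0790).

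The ratio of internal to promoter tags was tested directly as an interaction between tag kind and cell line, over 15257 genes. Of 166 very long genes tested 92 had a higher and 38 a lower ratio in mOPC libraries, beside 52.6% and 13.7% of all genes, and the medians on the log2 scale were 0.70 and 0.80. With promoter and internal counts scaled separately, 64 were higher and 52 lower, beside 34.7% and 22.1%, with medians of 0.13 and 0.23. The promoter is the denominator of this ratio. Of the 45 genes with lower promoters 41 had a higher ratio and 0 a lower one, and of the 106 with higher promoters 37 had a higher and 38 a lower one. With separate scaling these became 35 and 1, and 15 and 50.

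The 4 largest rises of the ratio were those of Syne1 (log2 9.13), Ptprn2 (7.08), Cpq (4.79) and Ctnna3 (3.87). Ctnna3, an alpha-catenin, had promoter tags of 1.72, 1.68 and 1.68 CPM in mESC and 6.20, 6.55 and 6.65 in mOPC libraries and internal tags of 2.74, 3.12 and 2.71 and 151, 174 and 151. A cluster in an intron of Ctnna3 with 0 tags in mESC libraries held 50.6% of the internal mOPC tags. The largest falls were those of Dlgap1 (-6.02), Enox1 (-5.66), Nav2 (-3.12) and Prkg1 (-1.85). In Dlgap1 promoter tags went from 1.13, 1.02 and 0.868 to 229, 225 and 234 CPM and internal tags from 24.97, 23.6 and 22.2 to 80.9, 82.3 and 80.1. All 8 kept their direction and their call with separate scaling.

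**Figure D2:**
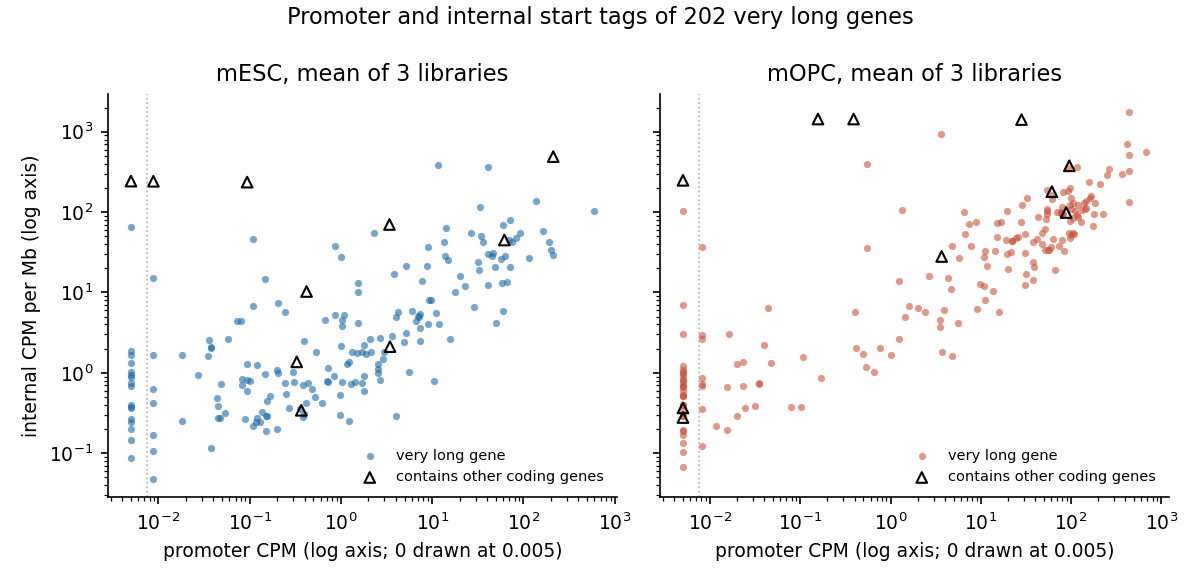
Mean internal tags (CPM per Mb of gene body outside promoter windows, vertical, log scale) against mean promoter tags (CPM, horizontal, log scale), 1 point per very long gene, mESC left and mOPC right, with genes that contain other coding genes marked. Internal density climbs with promoter level in both panels, and the rank correlation was 0.657 in mESC and 0.816 in mOPC libraries.

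Within a line, genes with stronger promoters had denser internal tags. Across the 202 genes, Spearman's rho of promoter CPM with internal CPM per Mb was between 0.652 and 0.661 in the mESC and between 0.816 and 0.817 in the mOPC libraries, and Pearson's r of the log2 values 0.505 ± 0.0113 and 0.725 ± 0.00668 (SD, n = 3). These are correlations across genes, which share library, depth and annotation and are not independent replicates. In the 768 coding genes of 200 to 500 kb, rho was 0.792 in mESC and 0.854 in mOPC libraries. The annotation of 10 of the 202 genes spans 79 other coding genes. Without these 10 genes rho was 0.710 and 0.863.

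Those 10 are Gm20388, which spans 36 coding genes, the overlapping models Gm42416, Gm37013 and Gm37388, which span the clustered protocadherins, and Gm37240, Camta1, Agbl4, Cadps2, Nell1 and Syt1. Internal tags of Gm20388, 490.1 CPM per Mb in mESC and 377 in mOPC libraries, lay largely at annotated starts of genes inside it such as Cox4i1, Rpl13 and Tcf25. Without tags near 5′ ends or in exons of other genes, its mean internal level fell from 2173 to 207.7 CPM in mESC and from 1670.3 to 321 in mOPC libraries. The protocadherin models had internal densities of 1416 to 1439.5 CPM per Mb in mOPC libraries and shared nearly all their tags. Only 40 of the 202 genes had no other gene overlapping on the same strand, and a tag in an overlap was counted for each gene.

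The median share of a gene's tags that lay inside it was larger in mOPC libraries. Among genes with at least 50 tags in each library of a line, the median internal share was 41.6%, 41.0% and 44.1% in the mESC libraries (102 genes, mean 42.2% ± 1.65) and 53.3%, 52.8% and 53.1% in the mOPC libraries (144 genes, 53.0% ± 0.233). The groups did not overlap (exact permutation test, two-sided p = 0.1, the smallest possible). The gene sets differ between the lines. Pooled over the tags of all 202 genes the internal share was 57.4% ± 2.40 in mESC and 61.3% ± 0.571 in mOPC libraries (exact permutation test, two-sided p = 0.1), and 36.1% ± 4.25 and 52.7% ± 0.514 without tags near 5′ ends or in exons of other genes. The mESC values of the latter were 41.0%, 33.4% and 33.9%, the first from the library with 569 CPM at 1 Foxp1 base, described below. The same order of medians was seen in the genes of 200 to 500 kb, at 21.4% ± 1.27 and 32.9% ± 0.336, and in those under 10 kb, at 1.11% and 1.74%. Counted per length and per promoter, the very long genes had the fewest internal tags, with a median of 6.47 tags per 100 kb and 100 promoter tags in mESC and 11.8 in mOPC libraries, against 8.18 and 16.5 for 200 to 500 kb and 28.3 and 44.6 under 10 kb. These medians cover only genes with at least 50 promoter tags in each library of a line. Of the very long genes these were 72 in mESC and 125 in mOPC libraries.

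**Figure D3:**
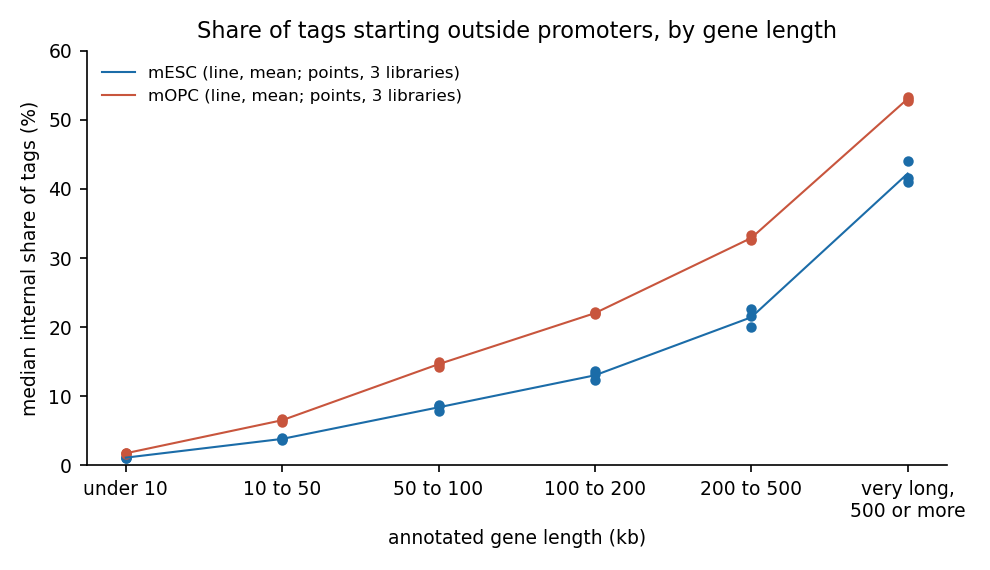
Median internal share (percent of a gene's promoter and internal tags) for each library, by gene length class, mESC and mOPC. The very long genes have the largest shares, 42.2% in mESC and 53.0% in mOPC libraries on average, and the mOPC libraries stand above the mESC libraries in every class.

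Shares ranged widely between genes, from 4.46% to 100%. Leaving out the genes that contain others, the lower and upper quartiles of 94 genes were 24.7% and 64.1% in mESC and those of 136 genes 37.1% and 68.5% in mOPC libraries, and the share hardly followed length (Spearman's rho 0.166 and 0.216). The lowest shares were those of A830018L16Rik (4.46% ± 0.846, SD), Spag16 (5.32% ± 5.12) and Sugct, a coenzyme A transferase (5.99% ± 1.04), in mESC libraries. In mOPC libraries they were those of Vps13b (14.5% ± 0.675), the cystine transporter Slc7a11 (18.1% ± 2.44) and Cdkal1 (20.6% ± 0.557). At the other end, Iqschfp, a fusion of neighbouring genes, had 0 promoter tags in any library and internal tags of 46.4, 46.8 and 50.5 CPM in mESC and 69.9, 83.8 and 72.7 in mOPC libraries, which share their strand with the genes it joins. Arhgap15, a Rac-inactivating protein, likewise had 0 promoter tags and 4.93, 4.89 and 3.84 internal CPM in mOPC libraries.

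**Figure D4:**
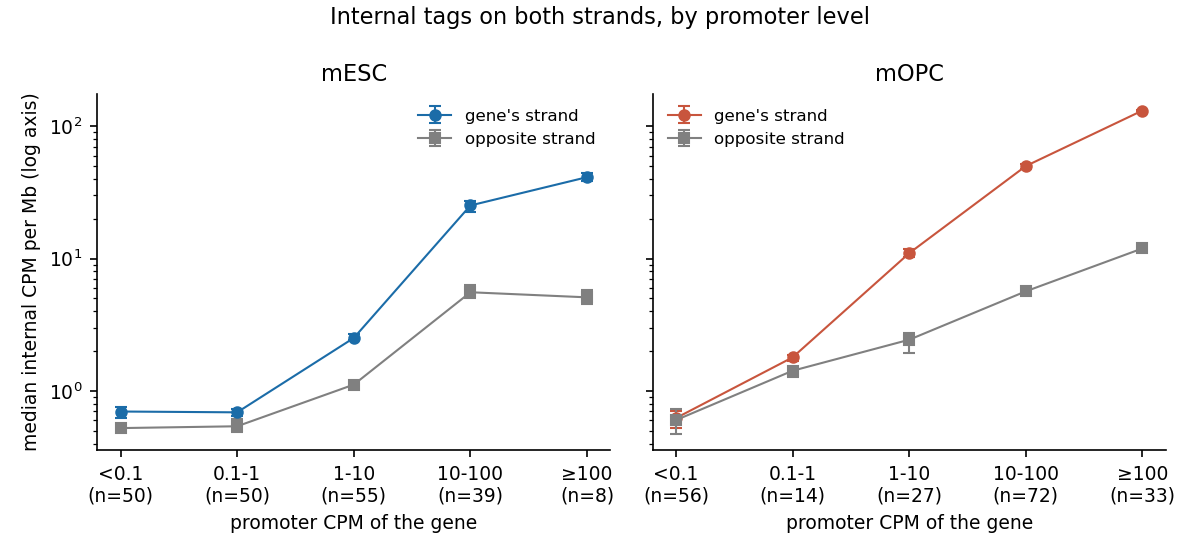
Median internal tags over genes, on the gene's own strand and on the opposite strand (CPM per Mb, log scale; mean of 3 libraries, with error bars from the lowest to the highest library) by promoter level of the gene in that cell line. In mOPC libraries both strands stand near 0.6 CPM per Mb for genes under 0.1 promoter CPM, and the own strand reaches 131 against 11.9 for genes of at least 100 CPM.

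The opposite strand of the same gene bodies was counted beside the own strand, leaving out 500 bp around every annotated 5′ end of any gene on the strand counted. For genes with under 0.1 promoter CPM, the median internal level was 0.698 ± 0.0685 CPM per Mb on the own strand and 0.523 ± 0.0371 on the opposite strand in mESC libraries (50 genes), and at 0.623 ± 0.0910 and 0.601 ± 0.127 in mOPC libraries (56 genes). From this floor the own strand climbed with promoter level, to 25.2 against 5.56 for 39 mESC genes of 10 to 100 promoter CPM and to 50.0 against 5.65 for 72 such mOPC genes. At 100 CPM or more it was 41.2 against 5.09 (8 mESC genes) and 131 against 11.9 (33 mOPC genes). Pooled over all 202 genes, the log2 ratio of own to opposite strand was 0.97 ± 0.19 in mESC and 2.41 ± 0.06 in mOPC libraries (exact permutation test, two-sided p = 0.1). The mESC libraries stood at 1.18, 0.816 and 0.913, and the first of them holds 569 CPM at 1 Foxp1 base, described below.

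Several of these genes used promoters deep inside their annotated span, which let tags before and after the promoter be compared. The promoter window with the most tags lay more than 100 kb from the gene's start in 25 of 90 genes with at least 100 tags there in mESC and 29 of 132 in mOPC libraries. For 26 genes in mESC libraries with enough sequence on both sides, internal tags had a median density of 32.9 ± 1.24 CPM per Mb after the main promoter and 7.68 ± 0.739 before it, and 22 of them were higher after it in all 3 libraries and 3 before it. For 31 genes in mOPC libraries the medians were 99.9 ± 1.54 and 10.8 ± 1.13, with 26 higher after and 4 before. The median log2 ratio was 2.44 ± 0.37 and 2.70 ± 0.25. With 100 bp windows it was 1.78 and 1.45, and with tags pooled over the genes it was 2.46 ± 0.72 in mESC and 1.30 ± 0.10 in mOPC libraries. Single genes weigh on the pooled values. Foxp1 had 2080 ± 3292 CPM per Mb after its mESC main promoter, with 95.2% of its internal mESC tags at a site high in library 1, described below. Syne1 had 41190 tags before its mOPC main promoter.

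Single genes showed the step clearly. In mOPC libraries Anks1b had 1445 ± 11.5 CPM per Mb after its main promoter, which lies 703.2 kb into the gene, and 56.9 ± 3.03 before it. Pde4b had 747.8 ± 13.3 after and 36.1 ± 4.02 before, and Dlgap1 268.9 ± 4.41 and 2.31 ± 0.382. In mESC libraries Etl4 had 394.7 ± 3.44 after and 16.8 ± 1.41 before a promoter 610.0 kb into the gene. Exceptions with more tags before the main promoter were Rabgap1l, Dgkb and Pde4d in mESC libraries and Tenm3, Syne1, Mctp1 and Lrmda in mOPC libraries, among them Syne1 with the exonic cluster described above. In Pde4d, 1 base before the promoter, at an annotated 5′ end of another gene (Rps3a3), held 59.8% of all internal mESC tags. Without tags of other genes, 23 genes were higher after and 2 before in mESC libraries, and 25 and 4 in mOPC libraries.

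The main promoter itself often differed between the lines. Among 76 genes with a main promoter in both, it lay more than 10 kb apart in 18 and more than 100 kb apart in 14. In Auts2, a regulator of neurodevelopment, the promoters were 1005 kb apart, with the gene's first promoter used in mOPC libraries and one near its end in mESC libraries. In Dmd they were 971.8 kb apart, 2099.5 kb into the gene in mESC and 1128 kb in mOPC libraries. The mESC start of Dmd, printed above, had 12.9, 12.4 and 12.4 CPM in mESC and 3.06, 3.71 and 3.52 in mOPC libraries, and the mOPC start had 0 tags in mESC and 24.8, 21.4 and 21.6 CPM in mOPC libraries. The lines thus used different main promoters of Dmd, whose summed promoter tags were not called. Anks1b (703.2 kb), Magi2 (680.5 kb) and Etl4 (610.0 kb) followed, then Adamtsl1, Foxp1, Rabgap1l, Kalrn, Fgf13, Dach2, Pde4d, Syne1 and Ank3.

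**Figure D5:**
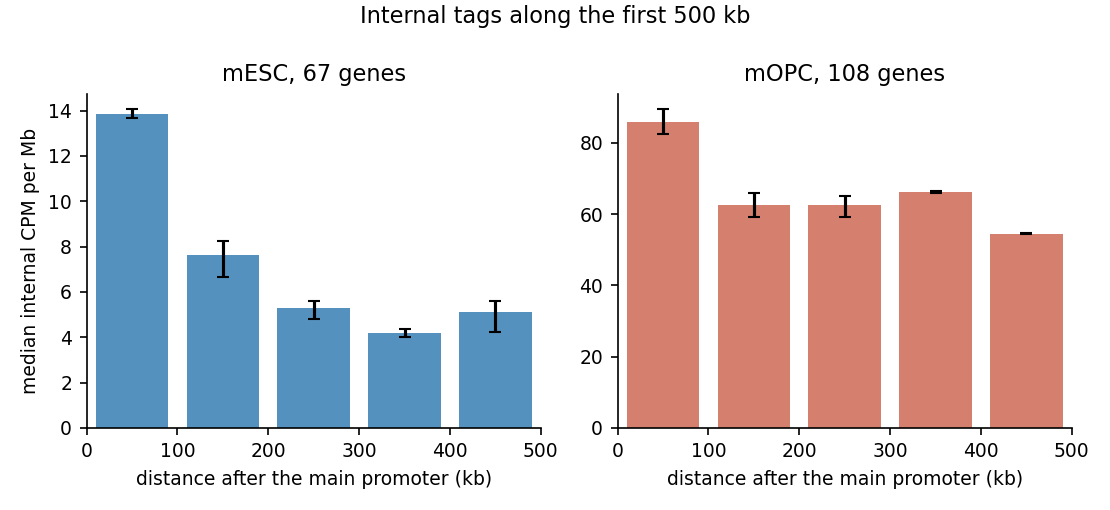
Median internal tag density (CPM per Mb; bars give the mean of 3 libraries and error bars the lowest to the highest library, with a separate vertical scale for each cell line) in 5 steps of 100 kb downstream of the main promoter, 67 genes in mESC and 108 in mOPC libraries. The mESC bars go from 13.9 in the first step to 5.09 in the fifth and the mOPC bars from 85.9 to 54.5.

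Downstream of the main promoter internal tags thinned out. Over 5 steps of 100 kb the median density was 13.9, 7.61, 5.30, 4.18 and 5.09 CPM per Mb in 67 genes in mESC libraries and 85.9, 62.6, 62.5, 66.2 and 54.5 in 108 genes in mOPC libraries. The fifth step stood at 0.368 ± 0.0571 of the first in mESC and 0.635 ± 0.0246 in mOPC libraries. The gene sets differ between the lines, and the difference between them was not tested.

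Internal tags were denser in exons than in introns. Exon density over intron density was 13.7, 3.28 and 2.91 in the mESC and 6.91, 4.11 and 3.64 in the mOPC libraries, and the high value of each line came from 1 base. At chr6:98944638, in an exon of Foxp1, the mESC libraries had 569, 12.9 and 1.47 CPM and the mOPC libraries 475, 0.763 and 0.709. This position is high in the library numbered 1 of each line, where it drew 21577 and 10415 tags. Foxp1, a forkhead transcription factor, had 37.1, 43.5 and 43.7 promoter CPM in mESC and 116, 115 and 119 in mOPC libraries, and without the position its internal tags were 17.2, 15.97 and 12.8, and 55.2, 53.5 and 50.9 CPM. Without it the ratio of exon to intron density over the 202 genes was 3.04 ± 0.156 in mESC and 4.06 ± 0.403 in mOPC libraries (exact permutation test, two-sided p = 0.1), against p = 1.00 with it. That value still holds the exonic Syne1 cluster, with 429.8, 376 and 299 CPM in mOPC libraries and 3 tags in mESC libraries. Exons covered 2014 kb and stood at 393 ± 33.4 CPM per Mb in mOPC libraries without the Foxp1 position. In mESC libraries exons stood at 82.5 ± 3.28 CPM per Mb without that position. Introns stood at 27.1 ± 0.659 CPM per Mb in mESC and 96.9 ± 1.51 in mOPC libraries. The ratio without the Syne1 cluster was not computed. If all tags of the cluster lie in the exons counted, leaving them out would put the mOPC ratio below the mESC ratio. The order given above is then that of this cluster and not of the other exons.

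Internal tags also differed in how they were spread. Promoter tags stood at 9.08 ± 1.81 tags per occupied position in mESC and 12.5 ± 2.05 in mOPC libraries, and internal tags at 3.52 ± 0.441 and 1.96 ± 0.0526. Of internal tags, 20.9% ± 2.30 in mESC and 41.9% ± 1.51 in mOPC libraries were alone at their position. These values move with depth, and the mESC libraries include both the 2 shallowest and the second deepest.

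Concentrated internal starts were collected as clusters, stretches of positions with at least 1 CPM in a library joined up to 20 bp. The 202 genes held 316 such clusters in 69 genes, of which 116 lay at an annotated 5′ end of another gene, 6 in an exon of another gene, 10 in an exon of the gene itself and 184 in its introns. Clusters took up 59.6% ± 2.66 of internal tags in mESC and 32.6% ± 1.58 in mOPC libraries. In genes that contain no others there were 179, with 35.3% ± 9.09 and 12.1% ± 2.73 of internal tags. Single libraries stood at 45.7%, 31.2% and 28.9% in mESC and 15.2%, 10.8% and 10.2% in mOPC. The first of each line is the library in which the Foxp1 base was high. A cluster could enter through the line in which it was high, and 67 of the 316 had a mean of at least 1 CPM in both lines.

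Besides those of Syne1, Enox1, Cpq, Foxp1 and Ctnna3, strong clusters in genes without others inside included intronic ones seen almost wholly in mOPC libraries. Lrrc4c had one 1.22 kb from an annotated 5′ end (chr2:97466435-97466499), with 0 tags in mESC libraries and 68.7, 65.4 and 72.6 CPM in mOPC libraries. Pde4d had one 1.10 kb from an annotated 5′ end, with 1 tag in mESC libraries and 24.9, 27.01 and 28.2 CPM in mOPC libraries. Frmd4a, a scaffold of cell polarity, had one with 0 tags and 23.3, 24.8 and 22.01 CPM, and the metabotropic glutamate receptor Grm7 one 241.8 kb from its 5′ ends with 1 tag and 20.2, 19.5 and 22.5 CPM. Pde4d also held a single base at an annotated 5′ end of another gene, with 81.3, 63.6 and 67.1 CPM in mESC and 24.3, 22.02 and 17.6 in mOPC libraries. In the composite model Gm37240 an intronic cluster (chr3:84641481-84641489) had 0.158, 0.0600 and 0.326 CPM in mESC and 142, 191 and 173 in mOPC libraries, and held 49.1% of the internal mOPC tags.

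With all clusters left out, internal tags still followed the promoter. The rank correlation across the 202 genes was 0.692 in mESC and 0.863 in mOPC libraries, and the median internal share was 36.6% ± 1.19 and 52.3% ± 0.269. Without tags near 5′ ends or in exons of other genes, 122 genes were higher and 49 lower inside among 190 tested, beside 41.2% and 40.6% of all genes.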

How the data were processed

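The data are 6 nuclear CAGE libraries, 3 of mESC and 3 of mOPC lines, grouped by their labels. The deposited values are raw counts: the authors counted, per base and strand, tags whose 5′ end maps there, without normalization. Per the study's methods, reads were split by barcode, trimmed and mapped uniquely to mm10 with bowtie, while the submitters' processing notes name CASAVA 1.8 and BWA 0.5.9. Unique mapping leaves repeats and near-identical genes undercounted. Tags carry no molecular identifiers, so that intervals and bounds cover counting error only.

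Genes and 5′ ends came from GENCODE vM21 (21938 protein-coding and 13374 long non-coding genes), and promoter sequences from RefSeq tables. No genome sequence was used, so that bases at internal starts were not analysed here. Counts per gene were made with Python 3.11.15, numpy 2.4.6 and pandas 2.3.3, and drawn with matplotlib 3.10.9. Comparisons across all genes used R 4.3.3 and edgeR 4.0.16 (robust quasi-likelihood fit, TMM factors, filterByExpr, Benjamini-Hochberg adjusted p under 0.05), with log2 fold changes of mOPC over mESC ± SE. For the ratio of internal to promoter tags, 12 columns of both tag kinds were fitted with the library as a factor. Values per library were compared by two-sided exact permutation tests (scipy 1.17.1), for which 0.1 is the smallest p of 3 against 3. Where a group had 0 tags, 3 counts over its pooled tags served as the floor. The fits were tested on simulated data. Internal densities are CPM per Mb outside promoter windows, and correlations on the log2 scale used a pseudocount of 0.01 CPM and ratios before and after a promoter one of 0.1 CPM per Mb.

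The genes, lists and tests were chosen with earlier results of these data known, and the lists were set by hand from gene names. The genes named singly follow a rule: the 6 largest promoter changes in each direction (with all libraries separated and at least 1 CPM), the 4 largest internal and ratio changes, the 4 highest promoters and densities, the 3 extreme shares, the 6 highest clusters per line, the 2 genes of each list with most tags, the genes next to the length limit, and widely known genes (Dmd, Fhit, Wwox and Macrod2). 1 gene of this rule is not reported here. Others are named as examples of a list or exception and were chosen after their values were seen. Numbered libraries of the lines were not treated as pairs, and the labels do not say whether the same number stands for a shared preparation. Deviations from the group means correlated at -0.00382, 0.0583 and 0.00638 for the same number. The Foxp1 base was high in library 1 of both lines (569 and 475 CPM), so that something shared by number cannot be left out of account. Alternatives were another tool (DESeq2 1.42.0), scaling, filter, window, threshold or pseudocount, a block for the replicate number, each library left out in turn, and tags of other genes, start clusters or composite genes (those that contain other coding genes) left out.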

Additional observations from a re-analysis of the deposited data

How the results depend on the processing

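Counts of genes called at the promoter, inside and for the ratio stayed within 1.5 times of the reported ones under another tool, window, filter or left-out library, except as follows. Scaling by library totals gave 34 genes with lower internal tags in place of 53. The 12 genes called opposite ways became 23 with library totals and 19 without a filter. Leaving out single libraries gave 105 to 106 higher and 45 to 49 lower promoters, 116 to 121 higher and 52 to 54 lower bodies, 80 to 91 higher and 36 to 39 lower ratios, and 11 to 13 genes called opposite ways. A replicate block gave 106 and 45 genes at promoters, 119 and 52 inside and 89 and 38 for the ratio.

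The difference of the exon to intron ratio (mOPC minus mESC, -1.73) turned to 1.02 without the Foxp1 position, an alternative chosen after seeing the data, and ranged from -3.59 to 1.79 with single libraries left out, the latter without mESC replicate 1. The exonic Syne1 cluster stayed in all of these values, so that none of them gives the order of the lines without it. The rank correlation of promoter and internal levels was, in mESC and mOPC libraries, 0.649 and 0.772 with 100 bp windows, 0.703 and 0.833 without tags of other genes, 0.692 and 0.863 without start clusters and 0.710 and 0.863 without composite genes (also chosen after seeing the data), and 0.818 in mOPC libraries with 1000 bp windows. Pearson's r was 0.529 and 0.708 with 100 bp windows, 0.627 and 0.773 without tags of other genes, 0.588 and 0.796 without clusters, 0.394 and 0.545 with a pseudocount of 0.1 CPM, and 0.625 and 0.802 without composite genes. The log2 ratio of tags after to before the main promoter was 1.78 and 1.45 with 100 bp windows. The fifth step relative to the first was 0.195 and 0.499 with 100 bp windows, 0.667 in mOPC libraries with 1000 bp windows and 0.759 there from the outermost 5′ end, which leaves no tags before it, and ranged from 0.285 to 0.363 and from 0.641 to 0.670 with single libraries left out. Start clusters numbered 762 at a minimum of 0.5 CPM and 174 at 2 CPM. Genes of at least 700 kb exceeded those of 200 to 500 kb in median internal share by 26.7 and 23.9 percentage points, against 20.8 and 20.1 for all very long genes.

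For single genes, the log2 ratio change turned negative with separate scaling in Ank2 (-0.13), Anks1b (-0.38), Dock1 (-0.11), Dscam (-0.54), Etl4 (-0.47), Vps13b (-0.19) and Zbtb20 (-0.058), and with 100 bp windows in Ank2 (-0.19) and Etl4 (-1.89). Without start clusters it turned positive in Foxp1 (0.39, with internal tags at 1.12) and St6galnac3 (0.23). Internal changes turned positive with library totals in Diaph2 (0.15), Iqschfp (0.66) and Wwox (0.63), and without tags of other genes in Iqschfp (0.80). The causes were not tested. Start dinucleotides at internal positions were not run. Genes with few tags are limited by depth, and changes near 0 in them were not detectable.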
